A study of Danio rerio with 12 samples.

Results

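Embryos given a morpholino against Sema6A were compared with control embryos over the 5134 genes with deposited values. By the labels these groups hold 8 of the 12 arrays in the series, and all 12 entered 1 model. The sema6A morphants (4 arrays titled Sema) and the plexinA2 morphants (4 arrays titled Plexin) were zebrafish of the rx3:GFP line injected with a morpholino at the 1-cell stage. The controls (4 arrays titled UIC) were of the same line, labelled wild-type, and no injection or control morpholino is named for them. All embryos were kept at 25 °C until 18 somites, a stage also labelled 18 hours after fertilisation. The labels call the arrays biological replicates and do not say how many embryos or clutches each array represents, so p-values measure only the spread between these arrays, which may be technical.

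Sema6A is a semaphorin held in the cell membrane, and PlexinA2 is a receptor for it. Semaphorin signalling through plexins steers axons and also governs adhesion and movement of cells, including cells of the early optic vesicle in zebrafish. A morpholino is a short antisense oligonucleotide that blocks translation or splicing of its target throughout the embryo, so every tissue is exposed, and the transgenic reporter rx3:GFP, which marks the eye field, is present in controls and morphants alike. At this stage primitive blood is starting to make haemoglobin, the brain still consists largely of dividing progenitors, and the optic vesicles have pushed out from the forebrain.

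All values below are log2 of the deposited 1-colour (Cy3) NimbleGen intensities, one per gene and array, and differences are sema6A morphant minus control unless stated. Defining markers of blood (hbae1.3, gata1a), muscle (ACTA1, MYL1), neural tissue (sox19a, ELAVL3) and eye (rx3, SIX3) were all measured. Levels of sema6a and plxna2 were not analysed here, so the knockdown itself has no check. Among the 12 arrays 3 stood apart. Control replicate 2 lay more than 1 log2 unit from the mean of its group's other arrays in 30.7% of genes, sema6A replicate 1 in 17.8% and control replicate 4 in 15.6%, whereas the other 9 arrays did so in 0.292% to 11.7%.

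Sema6A morphants had 58 genes lower and 102 genes higher than controls, 3.12% of all 5134 (1.13% lower and 1.99% higher; limma, Benjamini-Hochberg adjusted p under 0.05). The plexinA2 arrays shared in the spread estimate of this fit, and a fit of only the sema6A and control arrays called 47 genes, 38 higher and 9 lower. In plexinA2 morphants, tested against the same controls, 13 genes were lower (0.253%) and 134 higher (2.61%). Of the genes changed in sema6A morphants, 58 were also called in plexinA2 morphants, 57 of them higher and 1 lower. The other 102 (1.99% of all genes), 57 falls (1.11%) and 45 rises (0.877%), were called in sema6A morphants and not in plexinA2 morphants. A call on one side only does not show a difference, and the direct comparison of the morphants called 25 of the 102, 19 falls and 6 rises, against 1.71% of all genes. The 102 were picked on the same sema6A arrays, so a share above that of all genes was favoured by the choice and is no test. Most of the 25 direct calls were lost whichever plexinA2 array was left out. Leaving out 1 plexinA2 array left 1 to 3 of the 57 falls and 0 to 1 of the 45 rises directly called, against 2 to 18 and 0 to 8 without 1 sema6A array and 18 to 35 and 6 to 17 without 1 control array. Among 21 genes named below with a direct call, PSMB2 and rlbp1b kept it in all 12 fits that left out 1 array and the other 19 in 4 to 7 of them. The plexinA2 mean lay on the same side of control as the sema6A mean in 49 of the 57 falls and 42 of the 45 rises. Both comparisons share the 4 controls, so picking genes by their distance from these favours the same side, and the counts do not show a shared effect. The 4 sema6A arrays lay wholly below the 4 controls in 3.78% of all genes and wholly above them in 7.11%.

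Several genes of primitive red blood cells were lower in sema6A morphants. Of 23 measured genes of the erythroid list, 4 fell, none rose and 19 did not pass the test, against 1.13% lower and 1.99% higher over all genes. The mean was below control for 21 of the 23, and the list's median difference was -0.64, against 0.06 over all genes. Like all lists here, this list was chosen with earlier results of these data known, so its shares and median are no test. The same list had no call in plexinA2 morphants and a median of -0.12 there. In RNA of embryos, fewer red blood cells and less RNA per cell cannot be told apart.

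The gene for an embryonic alpha globin, hbae1.3 (ENSDARG00000089124), measured 6.37, 8.73, 7.63 and 8.50 in sema6A morphants, 10.21, 10.17, 10.16 and 9.96 in plexinA2 morphants and 9.61, 10.52, 9.53 and 11.56 in controls. Every sema6A array lay below every array of both other groups, and sema6A replicate 1 was the lowest while control replicate 4 was the highest. The gene averaged 7.81 ± 1.07 in sema6A morphants and 10.30 ± 0.95 in controls (n = 4 arrays per group, ± SD) and fell by 2.49 ± 0.47 (SE, 5.64-fold, adjusted p = 0.00637) in limma. Directly against plexinA2 morphants it differed by -2.31 (adjusted p = 0.0233), a call that held in 7 of 12 fits that left out 1 array (adjusted p from 0.00905 to 0.0926). The plexinA2 difference from control was -0.18 (adjusted p = 0.876).

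The transcription factor gene gata1a (ENSDARG00000013477), the master regulator of the erythroid programme, measured 8.63, 9.61, 8.97 and 10.31 in sema6A morphants, 10.74, 10.41, 10.62 and 10.23 in plexinA2 morphants and 11.14, 10.99, 10.89 and 10.87 in controls. The controls were tightly grouped and the sema6A arrays all lay below them, with sema6A replicate 4 the closest. It fell by 1.59 ± 0.33 (SE, 3.02-fold, adjusted p = 0.0103). The plexinA2 arrays lay between these groups, overlapping only the highest sema6A array, and the direct difference of -1.12 (adjusted p = 0.0669) did not pass.

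Alas2 (ENSDARG00000038643), which encodes the first enzyme of erythroid haem synthesis, measured 7.82, 8.75, 8.99 and 9.38 in sema6A morphants, 9.65 to 10.06 in plexinA2 morphants and 9.89 to 10.93 in controls. No sema6A array reached the controls, and the gene fell by 1.52 ± 0.34 (SE, 2.86-fold, adjusted p = 0.0183). The water channel gene AQP1 (ENSDARG00000023713), whose product sits in the red cell membrane, had values of 7.85, 9.26, 9.41 and 8.50 in sema6A morphants against 9.67, 11.35, 9.59 and 11.53 in controls. It fell by 1.78 ± 0.45 (SE, 3.43-fold, adjusted p = 0.0387), although control replicates 1 and 3 came close to the upper sema6A arrays.

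**Figure D1:**
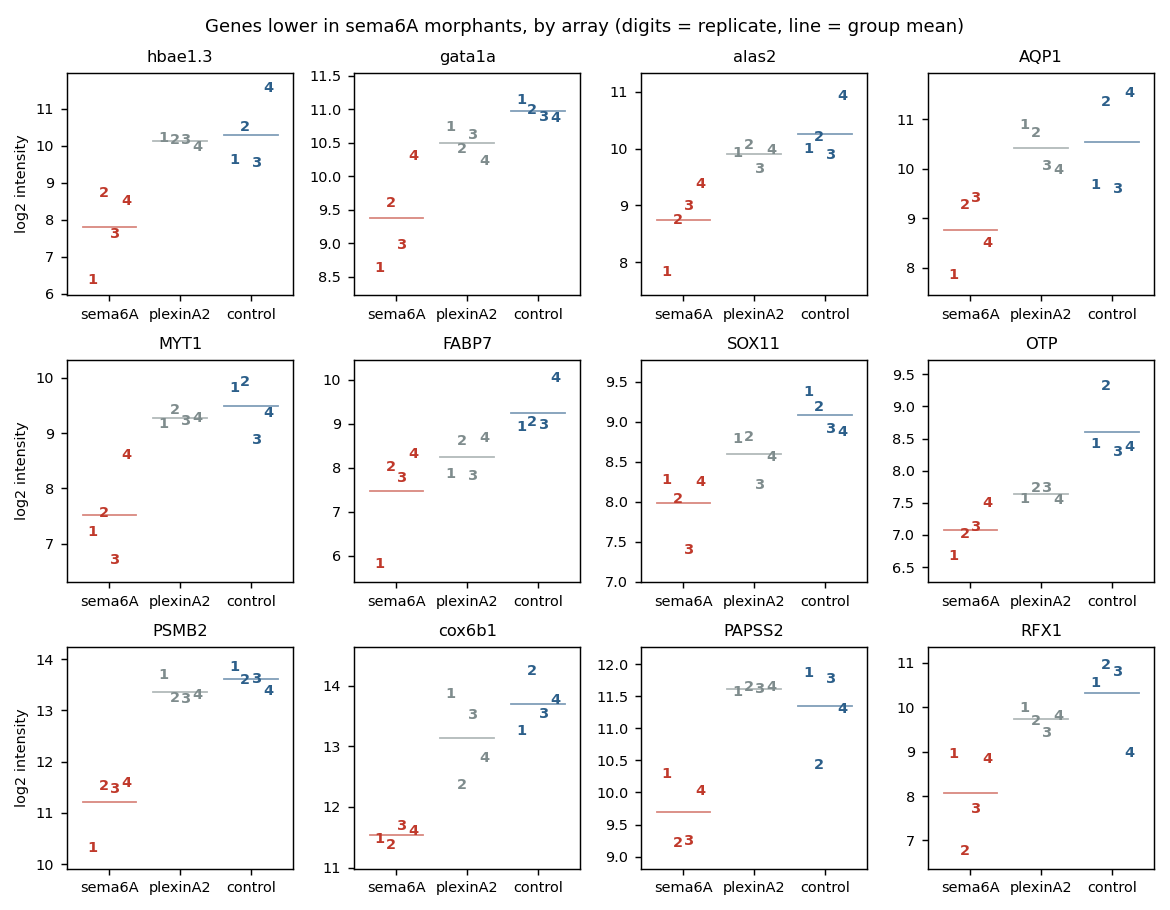
Log2 intensity (vertical axis) of 12 genes called lower in sema6A morphants and not in plexinA2 morphants, in each of the 4 sema6A, 4 plexinA2 and 4 control arrays. Digits give the replicate number and lines the group mean. In each panel the 4 sema6A arrays lie below all 4 controls, for PSMB2 by more than 1 log2 unit.

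Other red cell genes showed differences of similar size that did not pass. The globins hbae3, hbbe3 and hbae5 differed by -1.83, -1.87 and -1.93 (adjusted p = 0.071, 0.0731 and 0.0808). The anion exchanger gene SLC4A1 differed by -1.72 (adjusted p = 0.0629) and epb41b, for a protein of the red cell membrane skeleton, by -1.45 (adjusted p = 0.0591). In all 5 the sema6A arrays lay wholly below the controls, which with the 4 called genes made 9 of 23, against the 3.78% of all genes. The list was chosen with these data known and its genes are not independent, so this share is no test. For hbae5 the gap was narrow, with the highest sema6A array at 7.91 and the lowest control at 7.94. In plexinA2 morphants hbae5 differed from control by -1.39 (adjusted p = 0.25). Its direct difference between the morphants was -0.53 (adjusted p = 0.574). The haem enzyme genes CPOX (-0.54) and UROD (-0.51) and the spectrin gene SPTB (-0.53) overlapped between groups. Differences over the whole list ran from -2.49 for hbae1.3 to 0.24 for the transcription factor gene klf17.

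The differences of the globins hbae3 and hbbe3 depended on 2 arrays. Hbae3 measured 8.73, 11.97, 11.69 and 11.83 in sema6A morphants against 12.43, 13.03, 12.29 and 13.78 in controls, and hbbe3 8.07, 11.16, 11.32 and 11.67 in sema6A morphants against 11.93, 12.35, 12.09 and 13.32 in controls. Sema6A replicate 1 was about 3 log2 units below the other sema6A arrays in both genes, and control replicate 4 was the highest control in both. Without these 2 arrays the differences were -0.75 for hbae3 and -0.74 for hbbe3. Hbae5 leaned on control replicate 2 instead, at 11.52 against 7.94 to 9.20 in the other controls, and differed by -1.14 without that array and by -1.49 without sema6A replicate 1 and control replicate 4. SLC4A1 and epb41b leaned on control replicate 4, at 12.21 and 10.50 against at most 9.43 and 8.50 in the other controls, and differed by -0.89 and -0.76 without both arrays. SPTB turned to the opposite sign, 0.41.

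Of the called erythroid genes, hbae1.3 and gata1a remained called without both arrays, at -1.60 (adjusted p = 0.0242) and -1.38 (adjusted p = 0.0361). Over their alternatives, adjusted p ran from 0.00202 to 0.0455 for hbae1.3 and from 0.000175 to 0.067 for gata1a. The differences were -0.99 (adjusted p = 0.0616) for alas2 and -1.14 (adjusted p = 0.151) for AQP1, which were no longer called. Adjusted p ran from 0.00157 to 0.0995 for alas2 and from 0.0182 to 0.249 for AQP1 over the alternatives. The mitophagy receptor gene BNIP3L, lower by 0.64 and not called with all arrays, was called without both (-1.22, adjusted p = 0.0213). The list median was -0.47 without sema6A replicate 1 and -0.76 without control replicate 4, and -0.60 without both. The median thus stayed near its size, but genes of larger difference did not. The called genes, the other globins, SLC4A1 and epb41b all stood nearer to control without both arrays, as with hbae1.3 (-2.49 with all arrays) and alas2 (-1.52). BNIP3L stood further from it.

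Muscle gene levels followed those of blood genes on the same 2 arrays. The mean deviation of the 23 erythroid genes from their 12-array means, used as a list score on the log2 scale, was -1.27, -0.36, -0.36 and -0.43 in sema6A morphants, 0.30, 0.37, 0.21 and 0.27 in plexinA2 morphants and 0.08, 0.26, 0.14 and 0.79 in controls. The score of 38 measured skeletal and heart muscle genes was -1.87, -0.20, -0.20 and -0.33 in sema6A morphants, 0.60, 0.62, 0.57 and 0.53 in plexinA2 morphants and -0.29, -0.09, -0.18 and 0.84 in controls. Both scores were lowest in sema6A replicate 1 and highest in control replicate 4, but the sema6A arrays lay wholly below the controls only for the erythroid score.

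Of the 38 muscle genes none fell and 1 rose, against the 1.13% and 1.99% of all genes. The gene that rose was nebl, for the thin filament protein nebulette, which also rose in plexinA2 morphants. The median muscle difference was -0.74 with all arrays, -0.39 without sema6A replicate 1 and -0.39 without control replicate 4, and 0.01 without both. The 10 endothelial genes behaved likewise, with a median of -0.21 with all arrays, 0.03 without control replicate 4 and 0.13 without both. The part of the muscle and vessel differences in the blood differences was not tested. A second row of the muscle glycogen phosphorylase gene PYGM (ENSDARG00000013317), chosen after its values were seen and not counted in the list, fell by 1.45 ± 0.29 (SE, 2.73-fold, adjusted p = 0.00998) and stood at -1.42 (adjusted p = 0.0321) without both arrays, with 0.000725 to 0.0624 over its alternatives. The row of this gene counted in the list did not pass (adjusted p = 0.283).

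**Figure D2:**
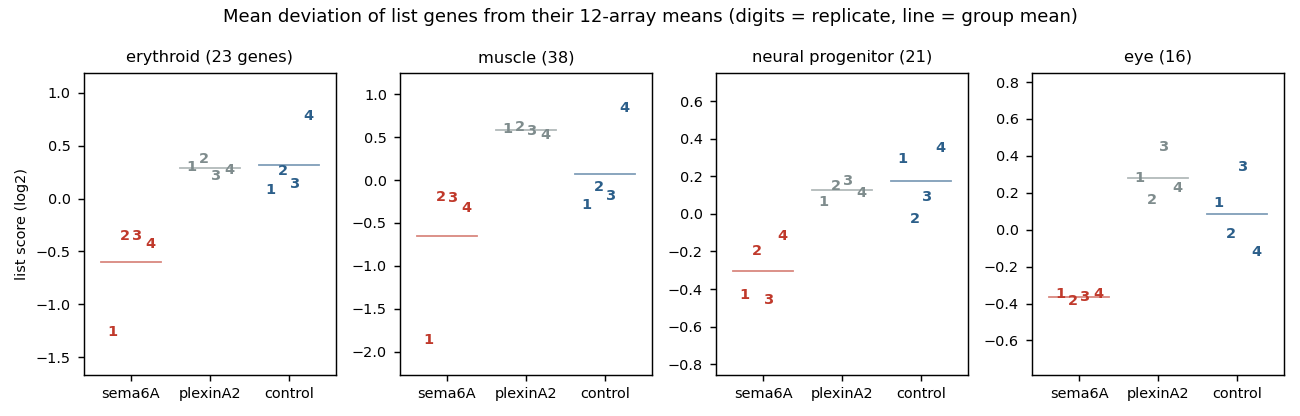
List scores (mean log2 deviation of a list's genes from their 12-array means, vertical axis) of the erythroid, muscle, neural progenitor and eye lists in the 4 sema6A, 4 plexinA2 and 4 control arrays. Digits give the replicate number and lines the group mean. Sema6A replicate 1 reaches -1.87 for muscle and -1.27 for erythroid genes, while the eye score of the 4 sema6A arrays lies between -0.39 and -0.35.

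Among neural genes, falls were found on the progenitor list and in single rows of OTP and DBX1. Of 21 measured genes of neural progenitors, Notch signalling and neurogenesis 3 fell, none rose and 18 did not pass, against 1.13% lower over all genes. This list too was chosen with these data known, so the share is no test. The mean was below control for 16 of 21, with a median difference of -0.31 in sema6A morphants, and -0.20 in plexinA2 morphants against the same controls. None of 26 genes on the list of differentiating neurons was called (median -0.34, 21 below control). The median of this list turned to 0.12 with array weights and to 0.20 without sema6A replicate 1 and control replicates 2 and 4. It also holds PAX3, a DBX1 row and tbx16, which is counted on the somite list too, while SOX11 stands on the progenitor list. The lists thus do not cleanly part progenitors from neurons.

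MYT1 (ENSDARG00000074030), a zinc finger transcription factor gene that promotes the step from progenitor to neuron, measured 7.22, 7.55, 6.71 and 8.61 in sema6A morphants, 9.17, 9.42, 9.22 and 9.28 in plexinA2 morphants and 9.82, 9.92, 8.88 and 9.37 in controls. All sema6A arrays lay below every array of the other groups, and it was replicate 4 and not replicate 1 that stood nearest to them. MYT1 averaged 7.52 ± 0.80 in sema6A morphants and 9.50 ± 0.48 in controls (n = 4 arrays per group, ± SD) and fell by 1.97 ± 0.36 (SE, 3.93-fold, adjusted p = 0.00449). It differed from plexinA2 morphants by -1.75 (adjusted p = 0.0235), a call that held in 6 of 12 fits that left out 1 array (adjusted p from 0.00549 to 0.0903). Without both arrays it differed from control by -1.92 (adjusted p = 0.0242), with adjusted p from 3.31e-05 to 0.0391 over its alternatives.

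The brain fatty acid binding protein gene FABP7 (ENSDARG00000007697), a marker of radial glia, measured 5.81, 8.01, 7.78 and 8.31 in sema6A morphants, 7.86, 8.61, 7.81 and 8.68 in plexinA2 morphants and 8.94, 9.05, 8.98 and 10.05 in controls. Sema6A replicate 1 lay far below the rest of its group and control replicate 4 above the rest of the controls, and sema6A morphants and controls did not overlap. FABP7 fell by 1.78 ± 0.45 (SE, 3.42-fold, adjusted p = 0.038) with all arrays. Without both the difference was -0.96 (adjusted p = 0.0955), and its adjusted p ran from 0.00718 to 0.126 over the alternatives. The plexinA2 arrays also lay wholly below the controls, at a difference of -1.02 (adjusted p = 0.255). The direct difference between the morphants, -0.76 (adjusted p = 0.281), did not pass.

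SOX11 (ENSDARG00000077811), a SoxC transcription factor gene of newborn neurons, measured 8.27, 8.04, 7.40 and 8.25 in sema6A morphants, 8.79, 8.81, 8.21 and 8.56 in plexinA2 morphants and 9.37, 9.19, 8.91 and 8.87 in controls. It fell by 1.1 ± 0.29 (SE, 2.14-fold, adjusted p = 0.0433), and without both arrays it was slightly further from control, at -1.26 (adjusted p = 0.0377), with adjusted p from 0.00105 to 0.151 over the alternatives. The sema6A arrays lay below all controls but overlapped the plexinA2 arrays, with a direct difference of -0.61 (adjusted p = 0.183).

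OTP (ENSDARG00000058379), a homeobox gene of hypothalamic neurons, measured 6.67, 7.01, 7.12 and 7.50 in sema6A morphants, 7.56, 7.73, 7.73 and 7.55 in plexinA2 morphants and 8.41, 9.32, 8.29 and 8.37 in controls. It fell by 1.52 ± 0.29 (SE, 2.87-fold, adjusted p = 0.00715), and was called in each of 12 fits that left out 1 array. The plexinA2 arrays were also wholly below the controls, at a difference of -0.96 (adjusted p = 0.0939). A second row carrying the same symbol (ENSDARG00000014201) differed by -0.74 (adjusted p = 0.274).

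The ventricular zone factor gene DBX1 also stood on 2 rows. One (ENSDARG00000001859) fell by 1.33 ± 0.35 (SE, 2.52-fold, adjusted p = 0.047), and the other (ENSDARG00000086393) differed by -0.84 (adjusted p = 0.12). Genes whose sema6A arrays lay wholly below the controls without a call included SOX1 (-1.01, adjusted p = 0.0648), onecutl (-1.26, 0.079) and PAX3 (-1.03, 0.0592). In plexinA2 morphants SOX1 also lay wholly below the controls, at -0.88 (adjusted p = 0.137), while onecutl and PAX3 differed by -0.24 and -0.41. No direct difference was called for these genes, and that of SOX1 was -0.13 (adjusted p = 0.796). SOX1 is a neural progenitor factor gene, onecutl a member of the Onecut family, and PAX3 a factor of the dorsal neural tube that is also used in muscle and neural crest. GFAP, of radial glia, and ELAVL4, an RNA binding protein gene of neurons, overlapped between groups at -0.89 and -1.01.

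Neural medians differed in how they rested on the 2 arrays. For the progenitor list the median was -0.38 without sema6A replicate 1 and -0.35 without control replicate 4, and -0.33 without both. For differentiating neurons it was -0.12, -0.22 and -0.03 under the same omissions, and ELAVL4 stood at -0.13 without both. Forebrain, midbrain and hindbrain patterning genes (18 measured, none called) had a median of -0.31 with all arrays and -0.34 without both. The neural progenitor score was -0.43, -0.20, -0.46 and -0.12 in sema6A morphants against 0.29, -0.03, 0.09 and 0.35 in controls, and the groups did not overlap.

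Eye genes were lower on average, without a call. Of 16 measured genes of the eye field, optic vesicle and early retina none passed in either direction, 13 lay below control and the median difference was -0.45, against 0.07 in plexinA2 morphants. The eye score was -0.35, -0.39, -0.36 and -0.35 in sema6A morphants, 0.28, 0.16, 0.45 and 0.22 in plexinA2 morphants and 0.14, -0.02, 0.34 and -0.12 in controls. As a mean over the list, the score in plexinA2 morphants is raised by rlbp1b, which differed from control by 3.25 there. The 4 sema6A arrays lay within 0.04 of each other and below all others. Because the list was chosen with these data known, the score carries no test. The median was -0.45 without sema6A replicate 1 and -0.52 without control replicate 4, and -0.47 without both.

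Within the list the even score hid genes that split the arrays. The homeobox gene six7 (ENSDARG00000070107), a zebrafish gene related to SIX3, measured 9.23, 6.11, 6.14 and 5.88 in sema6A morphants, 8.96, 8.14, 8.91 and 8.22 in plexinA2 morphants and 9.47, 8.06, 9.81 and 5.91 in controls. Sema6A replicates 2 to 4 and control replicate 4 were low, while sema6A replicate 1 and controls 1 to 3 were high, so the groups overlapped in both directions. The difference was -1.47 ± 0.73 (SE, adjusted p = 0.262) with all arrays. Leaving out sema6A replicate 1 and control replicate 4 gave -3.07 (adjusted p = 0.000812), and adjusted p ran from 9.13e-07 to 0.464 over the alternatives. For six7 these 2 arrays are the ones that lay apart from the rest of their groups. Leaving them out favours a call, so the adjusted p of that fit is no test.

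The eye field gene rx3 (ENSDARG00000052893), which zebrafish need to form eyes and after which the reporter line is named, measured 12.44, 9.76, 10.10 and 9.66 in sema6A morphants, 11.81, 11.34, 11.87 and 11.47 in plexinA2 morphants and 11.76, 10.44, 12.66 and 9.20 in controls. The same sema6A array was the highest and the same control array the lowest of its group. Rx3 differed by -0.52 ± 0.62 (SE, adjusted p = 0.683) with all arrays, and by -1.78 (adjusted p = 0.0377) without both. The sign turned to 0.02 without control replicate 3, and adjusted p ran from 0.000124 to 0.985 over the alternatives. For these eye field genes the 2 arrays thus lay against the direction of the group difference, whereas for globin and muscle genes they lay along it. The call of rx3 without both arrays is favoured by that omission, as for six7, and is no test.

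The eye gene foxd1 leaned on sema6A replicate 1 in the other direction. Foxd1, a marker of the temporal retina, measured 9.03, 10.37, 10.76 and 11.24 in sema6A morphants against 11.54, 11.82, 11.57 and 11.52 in controls and differed by -1.26 (adjusted p = 0.0648), by -0.82 without sema6A replicate 1 and by -0.85 without both. It was the one of 16 eye genes whose sema6A and control groups did not overlap, against 3.78% of all genes wholly below the controls. Foxd1 was not particular to sema6A morphants. The plexinA2 arrays, at 11.05, 10.53, 10.73 and 10.40, also lay wholly below the controls, at a difference of -0.94 (adjusted p = 0.21). The direct difference between the morphants was -0.33 (adjusted p = 0.577). SIX3, PAX6, LHX2 and VAX1, factor genes of the eye field, retina and optic stalk, differed by -0.63, -0.72, -0.43 and -0.65, and by -0.66, -0.99, -0.66 and -0.34 without both. None of these passed in either fit.

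The one eye gene called directly between the morphants was rlbp1b, a zebrafish gene for a retinaldehyde binding protein. It measured 6.14, 5.75, 5.66 and 5.64 in sema6A morphants, 8.64, 8.58, 9.14 and 8.35 in plexinA2 morphants and 5.41, 5.91, 5.23 and 5.15 in controls. The plexinA2 arrays stood apart from all others, sema6A morphants differed from control by 0.37 (adjusted p = 0.49) and from plexinA2 morphants by -2.88 (adjusted p = 2.62e-05).

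**Figure D3:**
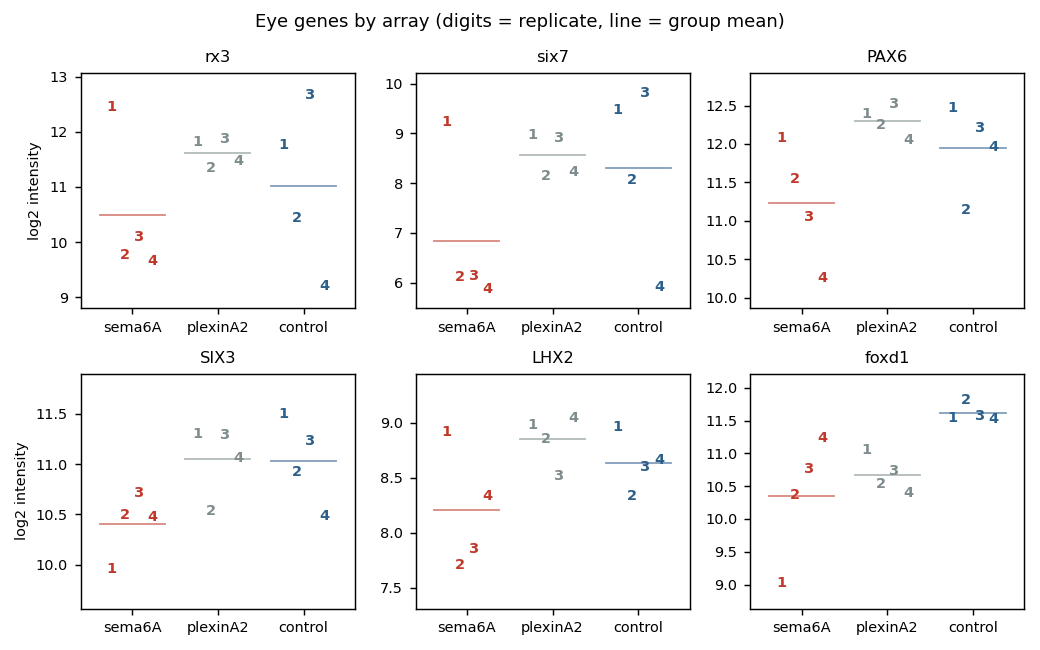
Log2 intensity (vertical axis) of 6 eye genes in each of the 4 sema6A, 4 plexinA2 and 4 control arrays, with digits for the replicate and lines for the group mean. For six7 and rx3, sema6A replicate 1 (9.23 and 12.44) sits with the high controls and control replicate 4 (5.91 and 9.20) with the low sema6A arrays.

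Many of the largest falls lay outside these tissues. PSMB2 (ENSDARG00000031511), for a beta subunit of the proteasome core, measured 10.31, 11.53, 11.47 and 11.58 in sema6A morphants, 13.70, 13.25, 13.22 and 13.30 in plexinA2 morphants and 13.84, 13.60, 13.62 and 13.38 in controls. The sema6A arrays were more than 1 log2 unit below every other array. PSMB2 fell by 2.39 ± 0.31 (SE, 5.23-fold, adjusted p = 0.000145), differed from plexinA2 morphants by -2.15 (adjusted p = 0.00234) and stood at -2.16 (adjusted p = 0.00037) without both arrays, with 2.83e-07 to 0.00306 over its alternatives.

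Respiratory chain genes were among the falls as well. For cox6b1 (ENSDARG00000045230), a subunit of cytochrome c oxidase, values were 11.47, 11.38, 11.69 and 11.60 in sema6A morphants, 13.87, 12.37, 13.51 and 12.80 in plexinA2 morphants and 13.26, 14.24, 13.53 and 13.76 in controls. All sema6A arrays lay below the other 8, and cox6b1 fell by 2.16 ± 0.33 (SE, 4.48-fold, adjusted p = 0.000921). Ndufa4b (ENSDARG00000056108), for a small protein of the same complex, fell by 1.58 ± 0.32 (SE, 2.99-fold, adjusted p = 0.00897). Both were called directly against plexinA2 morphants, at -1.61 (adjusted p = 0.0239) and -1.47 (adjusted p = 0.0299). Of the 16 measured proteasome and mitochondrial respiration genes 2 fell (PSMB2 and cox6b1) and none rose, against 1.13% lower and 1.99% higher over all genes. Their median of -0.13 turned to 0.07 without sema6A replicate 1 and to 0.17 without control replicate 2.

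Enzyme and transporter genes were among the falls that differed directly from plexinA2 morphants. PAPSS2 (ENSDARG00000056600), which makes the sulphate donor used for cartilage and other matrix, measured 10.29, 9.21, 9.25 and 10.02 in sema6A morphants, 11.57, 11.64, 11.61 and 11.65 in plexinA2 morphants and 11.87, 10.43, 11.77 and 11.31 in controls. The plexinA2 arrays were almost identical to each other and sat within the range of the controls. PAPSS2 fell by 1.65 ± 0.34 (SE, 3.14-fold, adjusted p = 0.0108) and differed from plexinA2 morphants by -1.92 (adjusted p = 0.0139). A second PAPSS2 row (ENSDARG00000071021) differed from control by 0.69 (adjusted p = 0.224). The amino acid transporter gene slc38a5b and LOXL3, of the lysyl oxidase family that crosslinks matrix, fell by 1.71 and 1.54 (adjusted p = 0.00663 and 0.0199). SGF29 (chromatin reader of the SAGA complex), TMEM230 (a membrane protein of vesicle traffic), GAS6 (ligand of TAM receptor kinases) and TCF12 (basic helix-loop-helix factor) fell by 1.52, 1.51, 1.47 and 1.09. Their direct differences from plexinA2 morphants were -1.53, -1.43, -1.31 and -1.30, all called.

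RFX1 (ENSDARG00000075904), a winged helix transcription factor gene, measured 8.94, 6.76, 7.71 and 8.83 in sema6A morphants, 9.99, 9.68, 9.43 and 9.81 in plexinA2 morphants and 10.55, 10.96, 10.80 and 8.98 in controls. Control replicate 4 stood at the level of the upper sema6A arrays and sema6A replicate 1 was the highest of its group, so that both arrays lay against the difference. RFX1 fell by 2.26 ± 0.46 (SE, 4.8-fold, adjusted p = 0.0103) with all arrays and stood at -3.01 (adjusted p = 0.000975) without both, with 6.29e-07 to 0.0644 over its alternatives. The developmental factor genes FOXF1, of lateral mesoderm and gut muscle, and PAX9, of the sclerotome and pharyngeal pouches, fell by 1.64 and 1.26 (adjusted p = 0.0121 and 0.033).

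Single genes fell on further lists. CDC6, needed to license DNA replication, fell by 1.34 (adjusted p = 0.0411) and abcb11a, related to the bile salt export pump, by 1.11 (adjusted p = 0.0241). The galectin gene lgals3a, counted on both the epidermal and the inflammation list, fell by 1.77 (adjusted p = 0.0437). The fibrinogen gene fga differed by -2.15 without passing (adjusted p = 0.0615), and sema6A replicate 1, at 6.81, was far below the other 3 sema6A arrays.

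The 45 rises not called in plexinA2 morphants were a mixed group. Tap2t, a zebrafish gene of the peptide transporter that feeds antigen presentation, measured 8.95, 8.86, 9.11 and 8.67 in sema6A morphants, 7.83, 7.99, 8.31 and 8.54 in plexinA2 morphants and 7.06, 7.89, 6.80 and 7.01 in controls. Sema6A arrays were highest, plexinA2 arrays intermediate and controls lowest, with no overlap between sema6A morphants and either group. Tap2t rose by 1.71 ± 0.30 (SE, adjusted p = 0.00291), against 0.97 (adjusted p = 0.0912) in plexinA2 morphants. Set against plexinA2 morphants, tap2t does not stand for its class. On the list of interferon, antigen presentation and inflammation genes, which does not hold tap2t, 13 of 16 were lower in sema6A than in plexinA2 morphants. Set against control, the score of this list went the same way as tap2t. It ran from -0.237 to 0.202 in sema6A morphants and from -0.615 to -0.444 in controls. The list was chosen with these data known, so its score is no test.

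The largest rise of this group with a symbol was ncoa7a, a nuclear receptor coactivator gene, at 1.86 (adjusted p = 0.0154). It was followed by cimap1d at 1.74 (adjusted p = 0.00882), tap2t, and the RNA helicase gene ddx19a at 1.63 (adjusted p = 0.00882). Genes tied to metabolism were ABCB6, a porphyrin transporter (1.49), SLC25A32, a mitochondrial folate carrier (1.5), the glucuronosyltransferase gene ugt5g1 (1.52) and the peroxidase gene prdx1 (1.39). Casp10, of the initiator caspases, rose by 1.46, and FERMT3, an integrin activator of blood cells, by 1.41 on 1 of its 2 rows.

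The 6 rises that also differed directly from plexinA2 morphants were cimap1d, PCMTD2, SMPD1, PIWIL1, MEI4 and brf2. PCMTD2 measured 9.97, 9.68, 9.70 and 9.62 in sema6A morphants, 8.79, 7.87, 8.74 and 8.49 in plexinA2 morphants and 8.13, 8.40, 8.27 and 8.44 in controls, with the sema6A arrays above all others, and differed from plexinA2 morphants by 1.27 (adjusted p = 0.0299). SMPD1 encodes the acid sphingomyelinase of lysosomes, PIWIL1 an Argonaute protein of germ cells and MEI4 a protein of meiotic recombination. These rose against control by 1.28, 1.23 and 1.17, and against plexinA2 morphants by 1.09, 1.28 and 1.35. For brf2, of an RNA polymerase III factor, the values were 1.1 and 1.51.

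Changes called in both morphants included rises in genes of DNA damage response and apoptosis. Of 34 measured genes of this kind 13 rose and none fell in sema6A morphants, against 1.99% and 1.13% of all genes, and 16 rose in plexinA2 morphants against the same controls. PHLDA3, an inhibitor of the survival kinase Akt, measured 12.60, 12.12, 11.94 and 11.81 in sema6A morphants, 12.10, 12.29, 11.71 and 12.10 in plexinA2 morphants and 8.71, 8.60, 8.14 and 8.45 in controls and was far above control on every array of both morphants. The cell cycle inhibitor gene cdkn1a and the AP-1 gene FOS rose by 2.13 and 3.05. None of the 58 genes called in both morphants differed directly between them, and a missed threshold does not show equal levels. The one shared fall, ATP1B4, of the sodium pump beta subunit family, stood at -1.44 in sema6A and -1.40 in plexinA2 morphants. The part of this response in the falls described above was not tested.

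How far the 57 falls rested on sema6A replicate 1 and control replicate 4 was described by leaving arrays out. The 57 were called on these same arrays, so their median and the shares of extreme arrays below are no test of it. Their median difference was -1.47 with all arrays, -1.37 without sema6A replicate 1 and -1.50 without control replicate 4, and -1.38 without both. Of the 57, 35 stayed called without sema6A replicate 1 and 46 without control replicate 4, and 33 without both. Without 1 of the other sema6A or control arrays, 18 stayed called for sema6A replicate 2, 20 for sema6A replicate 3, 52 for sema6A replicate 4, 29 for control replicate 1, 40 for control replicate 2 and 51 for control replicate 3. Sema6A replicate 1 was the lowest sema6A array in 24 of the 57 (42.1%), close to the 44.8% of all genes that were lower in sema6A morphants. Control replicate 4 was the highest control in 10 of the 57 (17.5%, against 30.0% of all lower genes), and control replicate 2 in 31 (54.4%, against 37.9%). With control replicate 2 left out as well, an omission chosen after seeing the data, 41 of the 57 stayed called, at a median of -1.24.

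**Figure D4:**
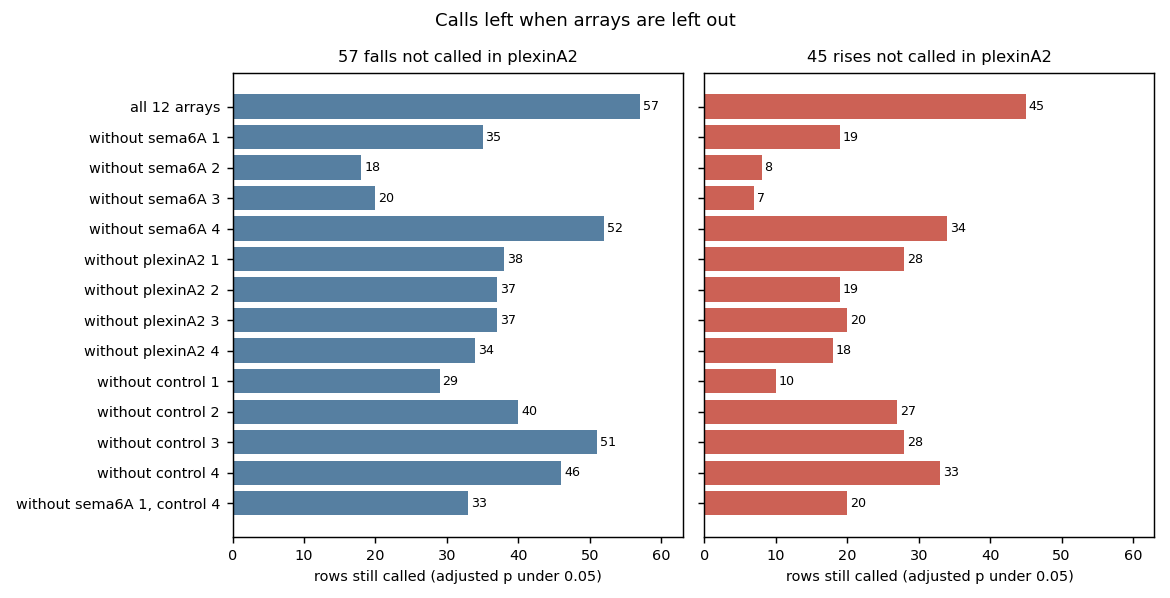
Number of the 57 falls (left) and 45 rises (right) called in sema6A and not in plexinA2 morphants that stayed called (horizontal axis) when the array or arrays named on the vertical axis were left out of the fit. Without sema6A 1 and control 4 together 33 falls and 20 rises stayed called, and without sema6A 2 alone 18 falls did.

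The spread estimate also entered these counts. Leaving out a plexinA2 array changes no sema6A difference, yet 34 to 38 of the 57 falls stayed called. The plexinA2 arrays were the tightest, with deviations from the rest of their group of SD 0.316 to 0.437. That SD was 0.449 to 0.815 in sema6A morphants and 0.613 to 1.021 in controls, so the shared estimate drew on tighter arrays. A fit of only the sema6A and control arrays called 9 of the 57. It called hbae1.3 (adjusted p = 0.0455) and MYT1 (0.0391). Not called there were gata1a (adjusted p = 0.067), alas2 (0.0995), AQP1 (0.133), FABP7 (0.126), SOX11 (0.151) and the called OTP row (0.0575). In all 12 fits that left out 1 array, 13 falls stayed called. Those with a symbol were hbae1.3, MYT1, OTP, PSMB2, cox6b1, ndufa4b, RFX1, FOXF1, grhprb, slc38a5b, SGF29 and cfap144, the last chosen after its values were seen. Of the 45 rises 6 did so, among them tap2t, ddx19a, cimap1d, ABCB6 and PCMTD2. At the other end, AQP1, FABP7, SOX11, the called DBX1 row, CDC6, lgals3a, TCF12, SLC25A32, MEI4 and brf2 stayed called in 2 or 3 of the 12.

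Over all genes, the fit without both arrays called 171, of which 98 were among the 160 called with all arrays, 62 of the 160 were lost and 73 were gained. It called 82 lower (1.60%) and 89 higher (1.73%). Besides six7, rx3 and BNIP3L, list genes lower in that fit without a call before were the somite genes mespaa (-1.85, adjusted p = 0.00547) and FOXC1 (-1.36, adjusted p = 0.0269), which act in somite formation and paraxial mesoderm, and the cyclin gene CCNG2 (-1.39, adjusted p = 0.0222). These 3 were named after their values were seen. The somite list of 24 genes had a median of -0.24 with all arrays and -0.70 without both, the opposite course to the muscle list. Over all genes the median was 0.06 with all arrays and 0.13 without both.

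**Figure D5:**
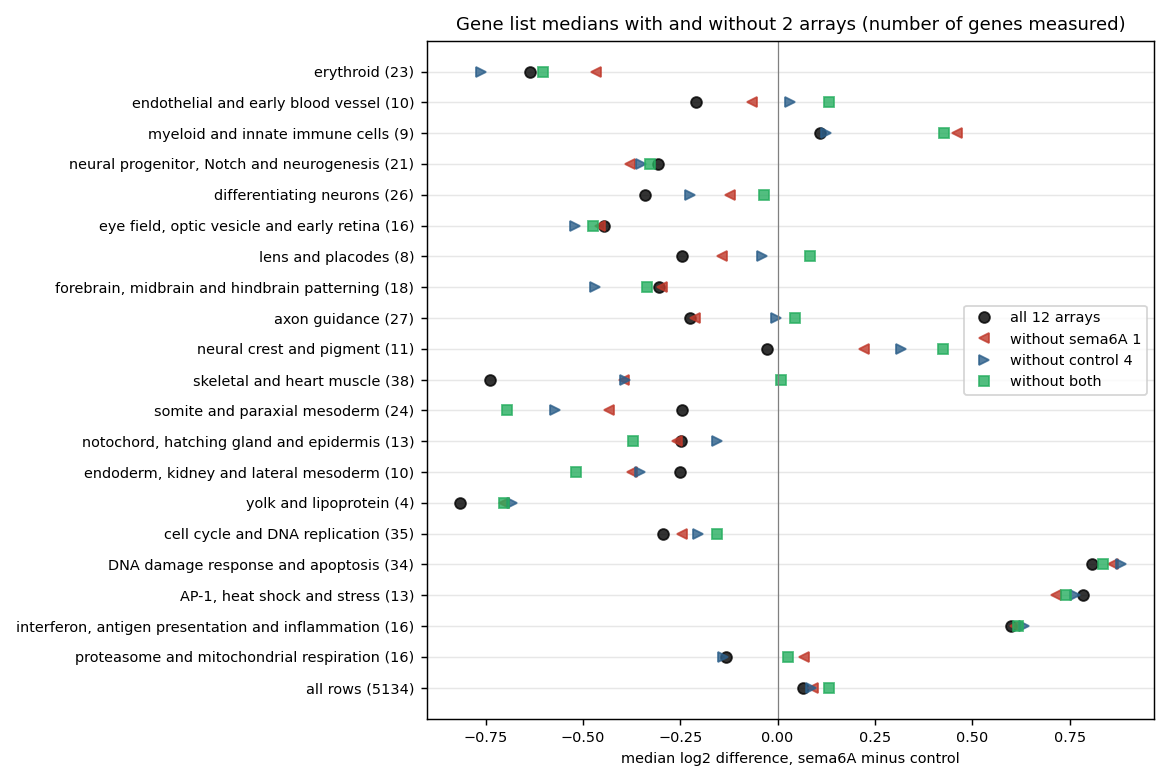
Median log2 difference, sema6A minus control (horizontal axis), of 20 gene lists and of all genes, with all 12 arrays, without sema6A replicate 1, with control replicate 4 omitted, and without both. Numbers in brackets count measured genes. The muscle median moves to 0.01 without both arrays, whereas the erythroid (-0.60), neural progenitor (-0.33) and eye (-0.47) medians stay below 0.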

How the data were processed

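RNA of 4 sema6A morphant, 4 plexinA2 morphant and 4 control samples had been hybridised to NimbleGen 385K arrays in 1 colour, per the labels' protocols. The authors deposited 1 intensity per gene and array on a linear scale (26.3 to 42222, array medians 608 to 708). The submitters' processing notes name RMA and give no version for it. RMA subtracts a modelled background, brings arrays to a common distribution and combines probes, so it compresses differences among dim genes and hides shifts of all genes together. Depth measures do not apply, and the number of arrays limits precision. No genome build is named there.

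The 5134 genes were taken to log2 with a pseudocount of 0. Why these genes have values is not given. Shares of all genes and adjusted p refer to this set, which may be a selection from the array. The model was limma's (version 3.58.1, under R 4.3.3), with lmFit followed by eBayes. All 12 arrays entered 1 model with group as the only term, with 9 residual and 9.54 prior degrees of freedom and a median residual SD of 0.47. Tests were two-sided with Benjamini-Hochberg adjustment over all 5134 genes, and every adjusted p is limma's. Calls needed an adjusted p below 0.05, and 1056 genes had an unadjusted p under 0.05 in sema6A morphants. The code of the fit was run on simulated data with the same spread in every group and no outlying array. These data differ in both respects, so the simulation does not bear on how the arrays that stood apart affect the calls.

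A gene name table gave symbols to 4349 genes and left 785 without. More than 1 row was held by 112 symbols, and capital symbols do not tell zebrafish paralogues apart. The 20 gene lists held 1143 entries, of which 1070 matched the table, and used for each symbol the row of highest mean. They were described by counts and medians only. Members, lists and the naming rule were chosen with earlier results of these data known. The rule took the 20 largest falls and 12 largest rises not called in plexinA2 morphants, genes called directly between morphants and members of the erythroid, neural and eye lists. It also took called or smallest-p genes of other lists, the largest shared changes, and the largest calls lost or made when sema6A replicate 1 or control replicate 4 was left out.

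Alternatives were a replicate block, a fit of 2 groups alone, omission of the dimmest 25 percent of genes, quantile normalization, array median centring, array weights, trend and robust priors, each array left out, and sema6A replicate 1 and control replicate 4 both left out. Leaving out control replicate 2 with these, and the plexinA2 comparison under each alternative, were added after seeing the data. A planned search of promoters for motifs was not run, because no promoter sequences were used here. Single values of a few genes are not reported here.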

Additional observations from a re-analysis of the deposited data

Results flagged for a closer look

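In 23 of 194 checks of a group of 4 arrays, over the genes named and the list scores, 1 array stood outside its group by Dixon's criterion. Chance alone flags about 1 in 20 groups, and genes of 1 list are not independent. Some genes were named because leaving out sema6A replicate 1 or control replicate 4 changed their call. That choice favours outlying values on these arrays, so the count is no test against chance. Sema6A replicate 1 was the outlying array for hbae3 (8.73), hbbe3 (8.07), SPTB (7.65), PSMB2 (10.31) and grhprb (8.51), where it was low, and for rx3 (12.44), six7 (9.23) and casp10 (9.33), where it was high. It was also low in the list scores of erythroid (-1.27), endothelial (-1.18), muscle (-1.87), brain patterning (-0.53) and proteasome and respiration genes (-0.56). Control replicate 4 was high for SLC4A1 (12.21), epb41b (10.50) and FABP7 (10.05). Control replicate 2 was high for OTP (9.32), foxd1 (11.82) and lgals3a (10.83) and low for CPOX (11.45) and SLC25A32 (8.51). Sema6A replicate 3 was low for onecutl (6.0) and sema6A replicate 4 high for abcb11a (11.78).

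The direct limma test of sema6A against plexinA2 morphants called 21 of the genes named, against 1.71% of all genes. A direct call was itself a reason for naming a gene, so this count is no test. Only PSMB2 and rlbp1b kept the call in every fit that left out 1 array. Sema6A morphants were lower for the blood genes hbae1.3 (-2.31) and epb41b (-1.96), for MYT1 (-1.75), for the eye gene rlbp1b (-2.88) and for CHRND, a muscle acetylcholine receptor gene (-1.52). They were lower too for PSMB2 (-2.15), cox6b1 (-1.61), ndufa4b (-1.47), PAPSS2 (-1.92), LOXL3 (-1.60), slc38a5b (-1.36), SGF29 (-1.53), TMEM230 (-1.43), GAS6 (-1.31) and TCF12 (-1.30). They were higher for cimap1d (1.45), PCMTD2 (1.27), SMPD1 (1.09), PIWIL1 (1.28), MEI4 (1.35) and brf2 (1.51).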

How the results depend on the processing

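The number of genes called in sema6A morphants (160) was 47 in a fit of only the 2 groups, 1407 with array weights, 690 with sema6A replicate 1 and control replicates 2 and 4 left out, and 66 to 226 with 1 array left out. The 102 higher became 38, 825 and 357 under those settings, and 46 to 132. The 58 lower became 9, 582 and 333, and 18 to 94. The 102 called in sema6A and not plexinA2 morphants became 15, 878 and 394, and 28 to 163. The 88 direct differences between morphants became 743, 2273 and 1623, with 158 under quantile normalization, 146 under median centring, 415 without sema6A replicate 1 and control replicate 4, and 6 to 495 with 1 array left out. The 147 plexinA2 calls became 1629 with array weights, 1272 without the 3 arrays, 509 without the 2, and 79 to 326. The neural progenitor median was -0.52 with array weights, -0.50 without the 3 arrays and -0.62 to -0.29 with 1 array left out. The eye median was -0.66 with array weights. Leaving out 1 array gave an eye median of -0.52 to -0.30. Signs turned for SPTB (0.10 without control replicate 4, with -0.94 to 0.10 over single arrays left out, 0.41 without the 2 arrays, 0.12 without the 3), the second OTP row (0.15 without the 3), ELAVL4 (0.16 with array weights, 0.24 without the 3) and rx3 (0.02 without control replicate 3, with -1.18 to 0.02 over single arrays). The cause of these shifts was not tested. Other alternatives kept each count within 1.5 times, apart from the direct calls under the replicate block given below. List medians turned sign with array weights for differentiating neurons (0.12), endothelial genes (0.07), and proteasome and respiration genes (0.36). The deviations of same-numbered sema6A and control arrays from their group means had correlations of 0.36, -0.03, -0.13 and 0.18. The labels do not say whether the numbers pair arrays, and 4 correlations cannot decide it. With the replicate number as a block, 158 genes were called in sema6A morphants (99 higher, 59 lower), 101 of them not in plexinA2 morphants, 130 in plexinA2 morphants and 144 directly. Each number holds 1 array of each group, so the block cannot change a group difference. The list medians were therefore the same by design (-0.64 erythroid, -0.31 neural progenitor, -0.45 eye). The array number limits how small a difference could be called, and dim genes are compressed by RMA.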
